A study of Homo sapiens with 8 samples.

Results

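The genes described here are 9 components of transforming growth factor beta (TGF-beta) signaling, taken as the rows of a count table of 86369 Ensembl gene identifiers that carry the symbols TGFB1, TGFBR1, TGFBR2, SMAD2, SMAD3, SMAD4, SMAD7, SKIL and TGFBI. They were picked by name, with earlier results of these data known, as 1 ligand, 2 receptors, 4 SMADs, 1 SMAD corepressor and 1 target gene. All 9 were among the 13840 genes with enough counts to be tested. The cells were HepG2, an established liver cancer line grown in serum-containing medium, so every library carries that line's genotype and its exposure to serum. One group received siNAT10, a short interfering RNA (siRNA) against the RNA cytidine acetyltransferase NAT10, and the other a negative control siRNA, siControl. Both were delivered by lipofection, and RNA was harvested 2 days later. Each group had 4 libraries, with replicates 1 and 2 in batch 1 and replicates 3 and 4 in batch 2. The labels do not say whether replicates were separate cultures, so the p-values measure only the spread between these libraries, which may be technical.

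In this pathway a dimeric TGF-beta ligand binds the type II receptor, which then phosphorylates the type I receptor. The type I receptor phosphorylates SMAD2 and SMAD3, which join SMAD4 and enter the nucleus to regulate genes. Among the genes switched on are SMAD7 and SKIL, whose products restrain the pathway, and TGFBI, a secreted matrix protein. In liver, TGF-beta is known for restraining hepatocyte growth and for driving fibrosis through stellate cells.

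Of the 9 genes, TGFBR2 was the one that passed the test between siNAT10 and siControl, and it rose. Its mRNA stood at 105 ± 18.5 CPM (counts scaled to a common library total; SD, n = 4) in siControl and at 156 ± 25.9 CPM (SD, n = 4) in siNAT10, a fitted level of 150.1% of siControl. The ligand TGFB1 stood at 71.7% and the partner receptor TGFBR1 at 82.3% of their siControl levels in the fit, and neither passed. The receptor-regulated SMAD2 and SMAD3 and the common partner SMAD4 had fitted levels of 101% to 104% of siControl. Among all tested genes 2.28% passed (315 genes, 0.816% or 113 higher and 1.46% or 202 lower), against 1 of 9 here, which was higher.

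The sequences shown are a promoter window of TGFBR2, the gene that passed, and the window of TGFBR3, a coreceptor described below that also passed. Both come from RefSeq on GRCh38.p14 and span 250 bases before to 50 bases after a start site, 5′ to 3′ on the gene's strand. All 9 genes matched the RefSeq table, with 24 windows in all because several have more than 1 start site. Capitals mark a match to TGACTCA, the motif bound by AP-1 (JUN and FOS family dimers), here read on the opposite strand. The TGFBR2 window shown is chr3:30606351-30606650, plus strand. Another TGFBR2 window, chr3:30606106-30606405, is not shown and holds 0 matches to TGACTCA. The TGFBR3 window is chr1:91886102-91886401, minus strand, with no capitals.
TGFBR2: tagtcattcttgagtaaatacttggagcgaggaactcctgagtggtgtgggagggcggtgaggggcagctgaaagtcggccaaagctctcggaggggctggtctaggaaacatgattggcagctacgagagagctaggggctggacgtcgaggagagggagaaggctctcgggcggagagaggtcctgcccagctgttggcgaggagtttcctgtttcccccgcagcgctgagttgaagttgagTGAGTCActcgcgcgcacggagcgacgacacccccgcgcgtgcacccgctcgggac
TGFBR3: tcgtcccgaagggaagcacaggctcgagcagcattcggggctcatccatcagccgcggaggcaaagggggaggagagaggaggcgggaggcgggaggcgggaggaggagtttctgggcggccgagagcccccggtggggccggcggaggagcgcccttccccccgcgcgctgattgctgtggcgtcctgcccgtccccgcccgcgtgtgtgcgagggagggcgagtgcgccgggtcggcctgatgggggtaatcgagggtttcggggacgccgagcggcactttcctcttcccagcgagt

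The TGACTCA match in the TGFBR2 window shown begins at position -6 relative to the start site of that window. Over both strands, TGACTCA occurred in 4.95% of the 35116 promoter windows of the table and in 2 of the 24 windows of the 9 genes (8.33%), 1 each for TGFBR2 and SMAD3. CAGACA, a sequence that SMAD proteins bind, occurred in 16.9% of all windows and in 3 of these 24 (12.5%), all of TGFBR1 or SMAD3. The palindrome GTCTAGAC, a high-affinity SMAD site, occurred in 0.202% of all windows and in none of the 24 windows of these genes. The 3 motifs share no stretch that makes one a part of another. A match describes letters in the window and says nothing of binding in these cells.

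The knockdown was checked next. NAT10 stood at 44.7, 39.2, 77.8 and 48.9 CPM in siControl replicates 1 to 4 and at 13.1, 12.2, 20.1 and 22.3 CPM in siNAT10. All siNAT10 libraries lay under all siControl libraries, and the fitted level was 31.6% of siControl (exact two-sided permutation test over 70 arrangements, p = 0.029, the smallest it can give). With labels exchanged within batches only, as the design has them, the smallest p that 36 arrangements allow is 0.056, and NAT10 reached it. Library totals ran from 9731718 to 27977110 counts, with the shallowest in siNAT10 replicate 4. The 315 calls fell to 75 when siNAT10 replicate 2 was left out, and to 104 (siControl replicate 1), 132 (siControl replicate 2), 134 (siNAT10 replicate 1) or 178 (siNAT10 replicate 3) when another was. With library size as the only scaling, 138 genes were higher and 149 lower. Hepatocyte markers were present, led by ALB (albumin) at a mean of 3917 CPM, while APOB was at 0.041 CPM. The summed level of the 10 markers ran from 10088 to 10815 CPM in siControl and from 8125 to 8922 CPM in siNAT10. Its part in the results below was not tested. ALB, TF and AFP had the highest counts in that sum, and the markers did not move alike. Fitted log2 fold changes were -0.37 for ALB, -0.49 for TF, -0.28 for AFP, -0.30 for TTR and -0.46 for SERPINA1. They were -0.0083 for APOA1, -0.06 for KRT18, 0.09 for HNF4A and 0.37 for FGB. TF alone passed (edgeR adjusted p = 0.023), and APOB was too low to test. Of 7 fibroblast or stellate markers 4 were at 0 in every library (COL1A2, COL3A1, LUM and DCN). The sum of the 7 was 31.1 to 41.3 CPM in siControl and 28.5 to 36.3 CPM in siNAT10. It was nearly all ACTA2, at a mean of 32.4 CPM. The 5 endothelial markers summed to at most 0.796 CPM. Of 6 immune markers PTPRC, CD3E and MS4A1 were at 0, and the sum, 409 to 556 CPM in siControl and 333 to 388 CPM in siNAT10, was nearly all LYZ.

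These libraries read the 3′ end of each mRNA, so a CPM value is not meant to grow with transcript length. How well each 3′ end was captured and counted was not measured, and APOB, a hepatocyte gene, was near 0, so the order below is one of counts. TGFBI had the highest count of the 9, with a mean of 888 CPM over all 8 libraries, above 98.9% of tested genes. SMAD3 (146 CPM), TGFBR2 (130 CPM), SMAD2 (68.6 CPM), SMAD4 (54.8 CPM) and SKIL (35.9 CPM) followed. TGFBR1 (15.8 CPM), TGFB1 (11.1 CPM) and SMAD7 (8.72 CPM) were the lowest, near the middle of all tested genes. In siControl the ranges of TGFBR1 and TGFB1 overlapped. Those of SMAD3 and TGFBR2 did not overlap in siControl, but in siNAT10 they did.

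**Figure D1:**
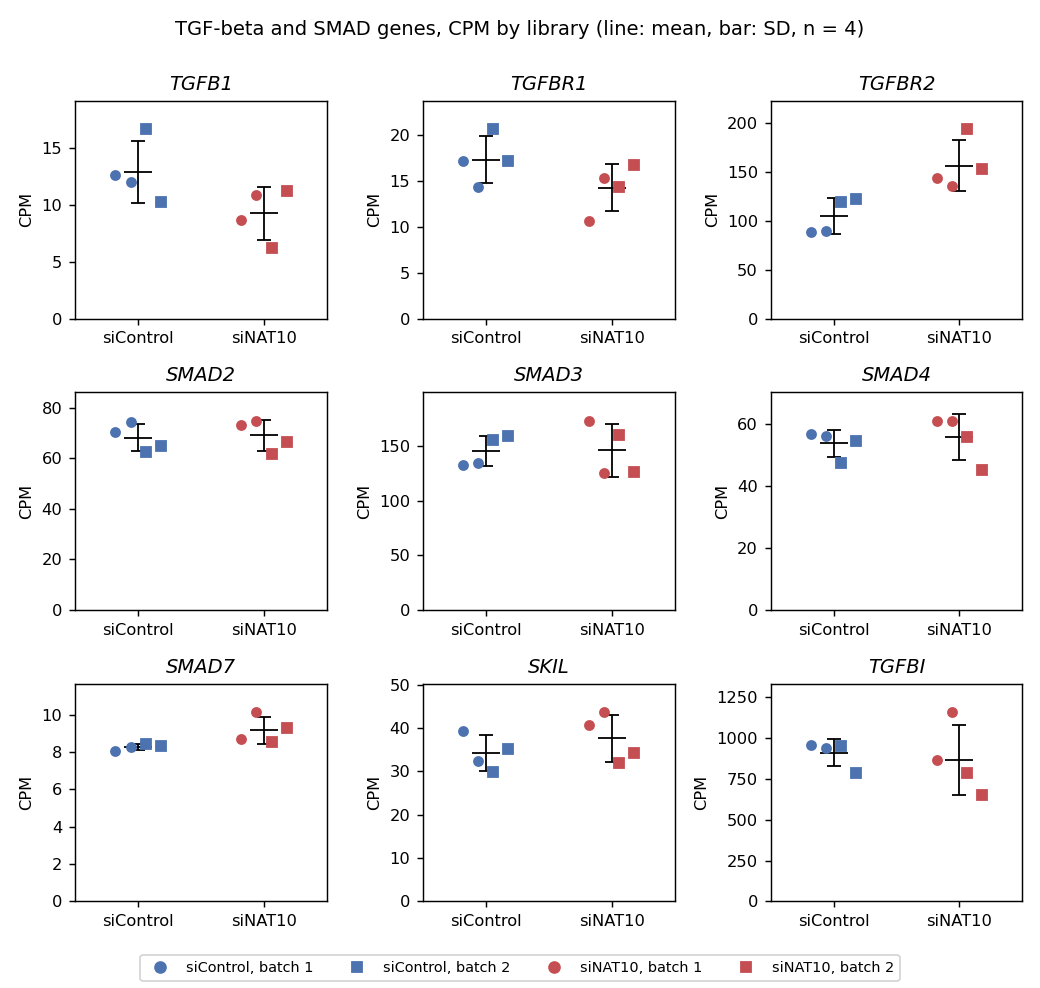
Level of each of the 9 genes in CPM (vertical axes, each from 0) in the 4 siControl and 4 siNAT10 libraries, with circles for batch 1 and squares for batch 2, the mean as a line and the SD as a bar. The siNAT10 libraries lie above all siControl libraries for TGFBR2 and, by a small margin, SMAD7, and the groups overlap for the other 7 genes.

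TGFB1 encodes the main TGF-beta ligand (ENSG00000105329; GRCh38 chromosome 19, 41301587 to 41353922, minus strand). It was measured at 12.6, 12.02, 16.6 and 10.3 CPM in siControl replicates 1 to 4 and at 8.70, 10.8, 6.20 and 11.2 CPM in siNAT10. In 3 of 4 siNAT10 libraries it lay under both siControl libraries of the same batch, the exception being replicate 4. On the log2 scale the fitted difference was -0.48, with a 95% interval from -0.88 to -0.08 (edgeR quasi-likelihood test, adjusted p = 0.22). Unadjusted p-values under 0.05 were found for 15.7% of all tested genes and for 2 of these 9, TGFBR2 and TGFB1. Without siNAT10 replicate 3, its lowest library, the TGFB1 value was -0.29.

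The type I receptor kinase TGFBR1 (ENSG00000106799; chromosome 9, 99104038 to 99154192, plus strand) read 17.2, 14.3, 20.6 and 17.1 CPM in siControl. In siNAT10 it read 10.7, 15.3, 14.4 and 16.7 CPM. The groups overlapped, with 3 of 4 siNAT10 libraries under both siControl libraries of their batch and replicate 2 between them. TGFBR1 had a log2 fold change of -0.28 with an interval from -0.58 to 0.012 (edgeR adjusted p = 0.34), so a loss of about this size was not separated from the spread between libraries.

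TGFBR2, the type II receptor that binds the ligand directly (ENSG00000163513; chromosome 3, 30606601 to 30694142, plus strand), was at 88.1, 89.2, 119 and 122 CPM in siControl replicates 1 to 4. In siNAT10 it was at 143, 135, 193 and 153 CPM. Every siNAT10 library lay above every siControl library, although the lowest siNAT10 value (135 CPM, batch 1) exceeded the highest siControl value (122 CPM, batch 2) by little. The groups did not overlap in 5.4% of tested genes and in 2 of these 9, TGFBR2 and SMAD7. In those 2 every siNAT10 library was also above both siControl libraries of its batch, as in 6.76% of tested genes, while 0 of the 9 had every siNAT10 library below both, as in 7.9% of tested genes. The fitted log2 fold change of TGFBR2 was 0.59 ± 0.10 (SE), with an interval from 0.37 to 0.80 (edgeR adjusted p = 0.0072), rank 50 of all tested genes by p. In bulk RNA, a change in level per cell and a change in the share of cells that express the gene cannot be told apart.

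The TGFBR2 difference was seen in each batch. With 2 libraries against 2, batch 2 alone called 0 of 13433 tested genes, and NAT10 itself did not pass there (edgeR adjusted p = 0.086). The log2 fold change of TGFBR2 was 0.65 in batch 1 (edgeR adjusted p = 0.016). It was 0.52 in batch 2, where TGFBR2 did not pass (edgeR adjusted p = 0.55). The test of the difference between batches gave an interaction of -0.13 ± 0.21 (SE; edgeR adjusted p = 1.00). TGFBR2 was also higher in batch 2 than in batch 1 by 0.38 on the log2 scale (edgeR adjusted p = 0.012), as 25.3% of tested genes differed between batches. Without the batch term the estimate was 0.58 and the call was lost (edgeR adjusted p = 0.31). With any 1 of the 8 libraries removed it was still called, with edgeR adjusted p from 0.0018 to 0.037.

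**Figure D2:**
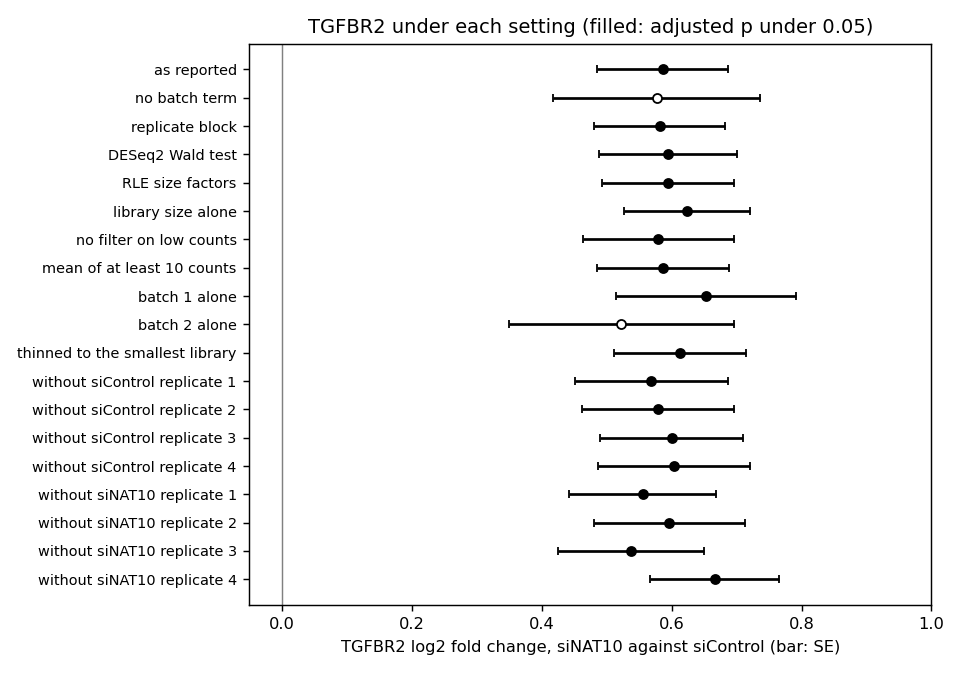
Fitted log2 fold change of TGFBR2 (horizontal axis; bar, standard error) as reported and under 18 other settings, filled where the adjusted p was under 0.05. Estimates run from 0.52 to 0.67, and the open symbols are the fit without the batch term and batch 2 alone.

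The counts of the receptors were also set against each other within each library. The TGFBR2 count was 5.13, 6.23, 5.79 and 7.13 times that of TGFBR1 in siControl replicates 1 to 4. In siNAT10 it was 13.4, 8.85, 13.5 and 9.14 times that of TGFBR1. The ratio was higher in every siNAT10 library than in any siControl library, and replicates 1 and 3, with the lowest TGFBR1, had the highest ratios. No test is attached to this ratio, which combines genes chosen together.

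**Figure D3:**
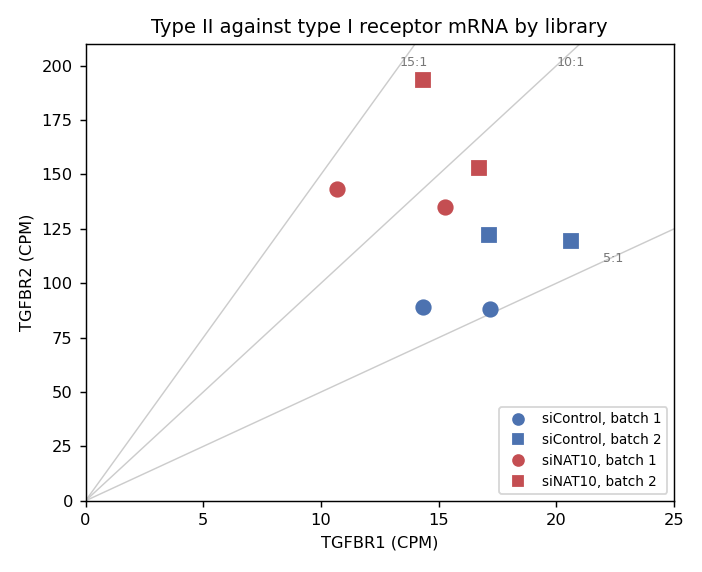
TGFBR2 against TGFBR1 in CPM (both axes from 0), 1 point per library, with grey lines at ratios of 5, 10 and 15. The siNAT10 libraries lie at ratios of 8.85 to 13.5 and the siControl libraries at 5.13 to 7.13.

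The SMADs that carry the signal had fitted differences near 0, and none passed. SMAD2 (ENSG00000175387; chromosome 18, 47808957 to 47931146, minus strand) was at 70.6, 74.3, 62.7 and 64.7 CPM in siControl and at 73.1, 75.0, 61.6 and 66.7 CPM in siNAT10. Its groups overlapped almost wholly, and its batches differed more than its groups. Its fitted log2 difference was 0.020 with an interval from -0.18 to 0.22 (edgeR adjusted p = 0.95), which leaves room for changes of up to that size.

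SMAD3, the second receptor-regulated SMAD and the one that binds DNA itself (ENSG00000166949; chromosome 15, 67063763 to 67195173, plus strand), was at 132, 134, 155 and 159 CPM in siControl. In siNAT10 it was at 173, 125, 160 and 126 CPM. The siNAT10 libraries split, replicates 1 and 3 above and replicates 2 and 4 below both siControl libraries of their batch. SMAD3 had a log2 fold change of 0.015 with an interval from -0.24 to 0.27 (edgeR adjusted p = 0.97), 0.16 in batch 1 and -0.13 in batch 2. Its sign turned also without siControl replicate 1, siControl replicate 2, siNAT10 replicate 1 or siNAT10 replicate 3. The SMAD3 count was 1.80 to 2.47 times that of SMAD2 in siControl and 1.67 to 2.60 times in siNAT10.

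SMAD4, the partner shared by all receptor-regulated SMADs (ENSG00000141646; chromosome 18, 51028528 to 51085045, plus strand), was at 57.0, 56.1, 47.4 and 54.8 CPM in siControl. Its siNAT10 values were 61.1, 61.2, 55.9 and 45.3 CPM. In 3 siNAT10 libraries it lay above both siControl libraries of the batch, and in replicate 4 below both. A log2 fold change of 0.05 was fitted, with an interval from -0.17 to 0.27 (edgeR adjusted p = 0.86).

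The inhibitory SMAD7, which blocks the type I receptor and is itself a target of the pathway (ENSG00000101665; chromosome 18, 48919853 to 48950965, minus strand), was at 8.03, 8.28, 8.43 and 8.31 CPM in siControl. It was at 8.70, 10.2, 8.55 and 9.29 CPM in siNAT10. Its groups did not overlap, yet the values rest on 95 to 292 counts per library. The exact 95% Poisson interval, which covers counting error only, ran from 7.25 to 9.76 CPM for the highest siControl library and from 7.02 to 10.3 CPM for the lowest siNAT10 library. The siControl SD was 0.168 CPM, 0.252 times the 0.664 CPM that counting alone gives, so these 4 values lie closer together than counting error alone gives on average. The fit gave 0.15 on the log2 scale with an interval from -0.14 to 0.45 (edgeR adjusted p = 0.64), and a difference was not detectable at this depth.

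SKIL, which encodes the corepressor SnoN that binds SMADs and whose gene the pathway induces (ENSG00000136603; chromosome 3, 170357342 to 170396835, plus strand), was at 39.4, 32.4, 29.8 and 35.1 CPM in siControl. It was at 40.7, 43.7, 32.0 and 34.3 CPM in siNAT10. Both batch 1 siNAT10 libraries were above their siControl libraries and both batch 2 libraries between theirs. For SKIL the log2 fold change was 0.13 with an interval from -0.10 to 0.37 (edgeR adjusted p = 0.61).

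TGFBI, a secreted matrix protein named for its induction by TGF-beta (ENSG00000120708; chromosome 5, 136028988 to 136063818, plus strand), was at 958, 941, 954 and 786 CPM in siControl. In siNAT10 it was at 865, 1160, 787 and 654 CPM, a wider spread with replicate 2 highest and replicate 4 lowest of all 8. The siNAT10 SD of 214 CPM was 29.3 times what counting error gives at this depth. For TGFBI the log2 fold change was -0.09 with an interval from -0.36 to 0.18 (edgeR adjusted p = 0.79), 0.095 in batch 1 and -0.27 in batch 2. The sign turned without siControl replicate 3 (0.012) or siNAT10 replicate 4 (0.0016).

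**Figure D4:**
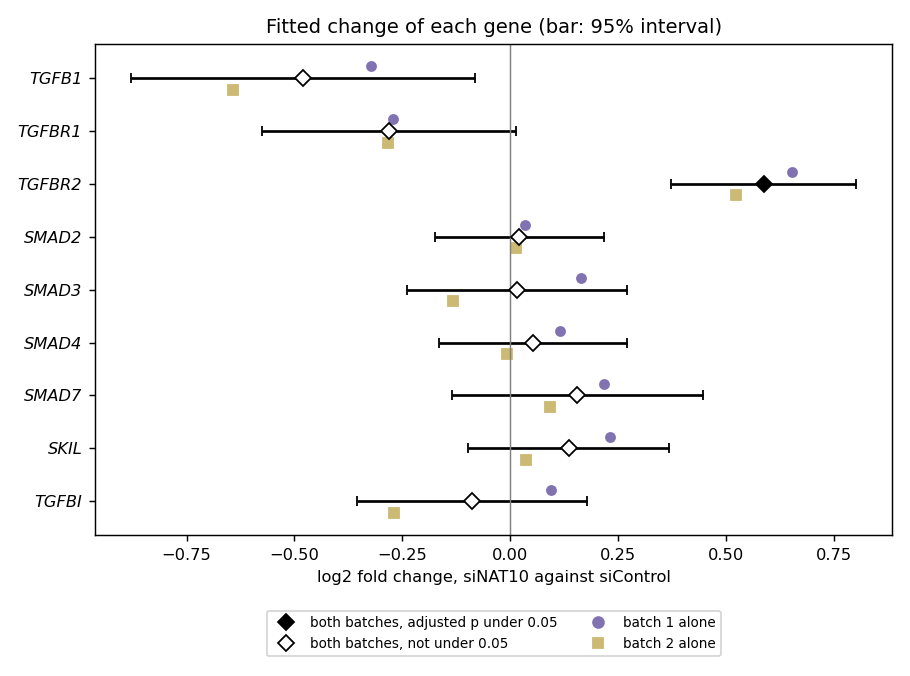
Fitted log2 fold change of each of the 9 genes (horizontal axis) with its 95% interval, filled where the adjusted p was under 0.05, and the estimates from batch 1 alone (circles) and batch 2 alone (squares). The TGFBR2 interval (0.37 to 0.80) and the TGFB1 interval (-0.88 to -0.08) lie apart from 0, and TGFBR2 alone passed after adjustment.

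Over the 9 genes the median log2 fold change was 0.020, with 6 positive and 3 negative, against -0.0024 over all tested genes. The interaction of batch and siRNA passed for 0 of the 9 genes in edgeR, as it did for 0 of all 13840 tested genes. At an unadjusted p under 0.05 were 0 of the 9 and 3.04% of all genes. DESeq2 called the interaction for 0 of the 9 and for 1 gene in all. With library size alone as the scaling, the median of all genes was 0.037 and the same 6 of the 9 had positive values. In the last 500 bases of the 9 canonical transcripts GENCODE 44 places no other gene on either strand. Genes of the counting annotation that did not match GENCODE 44 were not examined.

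The levels of the genes were also correlated pair by pair across libraries, and the values differed widely between pairs. After the mean of each batch was removed, TGFB1 and TGFBR1 correlated at a Pearson r of 0.82 over the 8 libraries. TGFBR2 correlated with TGFB1 at -0.76 and with TGFBR1 at -0.74. SMAD7 correlated with SKIL at 0.57, while TGFBI correlated with SMAD7 at 0.18 and with SKIL at -0.07. Among the other pairs, SMAD2 and SMAD7 were at 0.61 and TGFBR2 and SMAD7 at 0.60. SMAD4 and SMAD7 were at 0.010, and TGFB1 and SMAD4 at -0.73. These values contain the difference between the groups and the points share library preparation and depth, so they are descriptions. Among 8666 genes of at least 8 CPM, those most like TGFBR2 by this measure were DNAJC19 (r = 0.99), OXER1 (r = 0.99) and NDUFAF6 (r = 0.98).

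The wider pathway was described with a list of 77 other genes, of which 58 were tested. In it 1 gene rose and 2 fell (3 of 58, beside 2.28% of all tested genes), and the median log2 fold change was -0.07. With the replicate number as a block 5 genes passed, the added ones being INHBB and GDF11. Leaving out siControl replicate 2 or siNAT10 replicate 1 left 1 call. Leaving out siNAT10 replicate 2 left 0 (edgeR, with 9 of 59 tested list genes at an unadjusted p under 0.05). In that fit 1817 of all 14051 tested genes were under that level.

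Among 12 receptors and coreceptors, 9 were tested, and in edgeR 1 rose and 0 fell. An unadjusted p under 0.05 was found for 2 of them, beside 15.7% of all tested genes. TGFBR3, or betaglycan, presents ligand to TGFBR2 (ENSG00000069702; chromosome 1, 91680343 to 91906335, minus strand). It was at 427, 450, 327 and 356 CPM in siControl and at 590, 556, 471 and 472 CPM in siNAT10. No siNAT10 value was as low as any siControl value, while the groups did not overlap in 5.4% of all tested genes. The log2 fold change of TGFBR3 was 0.43 ± 0.09 (SE, edgeR adjusted p = 0.028). The call was narrow: of the fits that left out 1 library it held without siNAT10 replicate 4 (0.043) and was lost in the other 7 (edgeR adjusted p from 0.055 to 0.098), while the estimate stayed between 0.40 and 0.46. Within batches the log2 fold changes were 0.39 and 0.47, and neither passed alone. BMPR2, the type II receptor for bone morphogenetic proteins, was at 18.9 ± 2.13 CPM in siControl and 13.5 ± 2.31 CPM in siNAT10 (SD, n = 4), a log2 fold change of -0.51 that did not pass (edgeR adjusted p = 0.078). Its groups did not overlap either. It was called by DESeq2, in edgeR with no filter on low counts, and without siControl replicate 4 or siNAT10 replicate 4. BAMBI, a decoy receptor, was at 44.1 and 47.01 CPM, with a log2 value of 0.11.

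Among 11 genes of ligand latency and activation 5 were tested, and 1 fell. FURIN, a protease that cleaves the TGF-beta precursor among many others (ENSG00000140564; chromosome 15, 90868588 to 90883564, plus strand), was at 195, 244, 202 and 174 CPM in siControl and at 163, 144, 145 and 110 CPM in siNAT10. All siNAT10 values lay under all siControl values, while the groups did not overlap in 5.4% of all tested genes. The fitted log2 difference of FURIN was -0.54 ± 0.12 (SE, edgeR adjusted p = 0.023). The call was lost without siControl replicate 2 (0.097), siNAT10 replicate 1 (0.055), siNAT10 replicate 2 (0.10) or siNAT10 replicate 4 (0.0502), and in each batch alone. ITGAV, the integrin subunit alpha V that binds latent TGF-beta, stood at 115 and 114 CPM. LTBP1 and 5 others of this list were too low to test, at mean levels of at most 0.403 CPM.

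Among 14 other ligands of the superfamily 8 were tested and 0 passed (edgeR, 2 with an unadjusted p under 0.05), with 7 of 8 negative and a median of -0.13. Of all 13840 tested genes 15.7% had an unadjusted p under 0.05 and 6968 were negative. GDF15, a stress-induced cytokine, had the highest count at 2835 ± 199 CPM in siControl and 3035 ± 880 CPM in siNAT10 (SD, n = 4). Its siNAT10 libraries lay above both siControl libraries in batch 1 (log2 fold change 0.39) and below both in batch 2 (-0.27), and neither these values nor the interaction of batch and siRNA passed (edgeR adjusted p = 1.00 for the interaction). BMP4 stood at 194 and 188 CPM, and INHBC at 15.8 and 14.4 CPM with a log2 fold change of -0.11. Chosen after their values were seen, INHBB (6.08 and 3.02 CPM, log2 fold change -0.92, edgeR adjusted p = 0.055) and GDF11 (4.20 and 2.35 CPM, log2 fold change -0.85, edgeR adjusted p = 0.056) were just outside the threshold. Both passed in DESeq2 and with the replicate block, and neither had overlapping groups. SARNP lies over the 3′ end of GDF11 on the other strand, so that count is uncertain. The ligands TGFB2 and TGFB3 had too few counts to test, so TGFB1 was the one TGF-beta isoform gene tested.

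**Figure D5:**
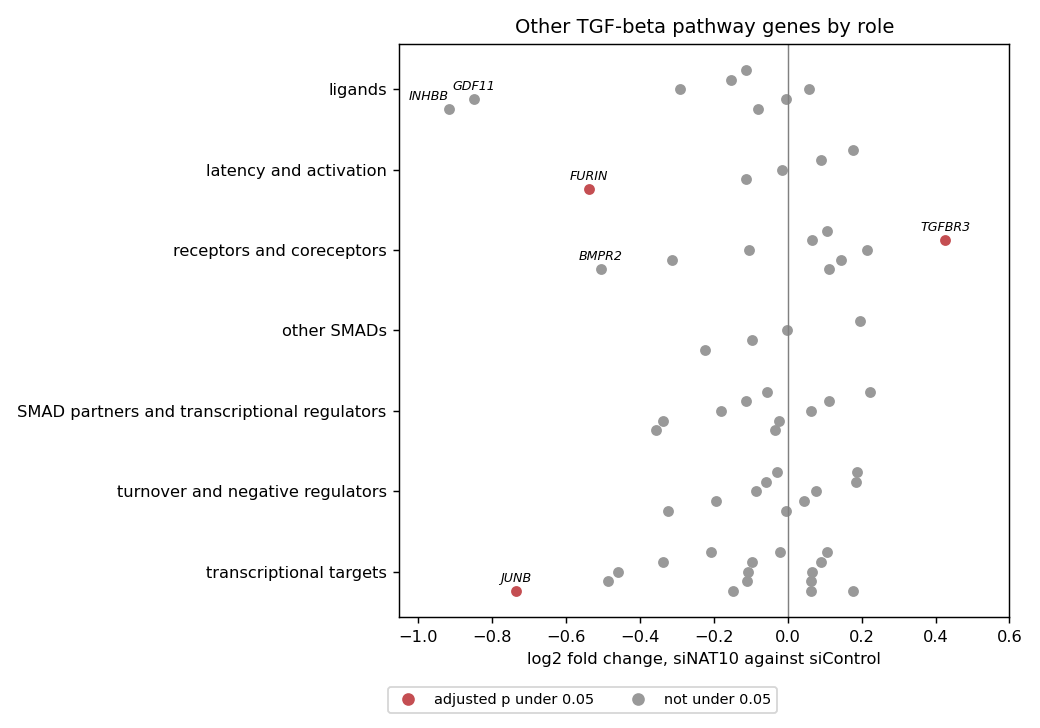
Fitted log2 fold change (horizontal axis) of the 58 tested genes of the wider list by role, red where the adjusted p was under 0.05, with a gene of more than 1 role drawn in each. TGFBR3 lies to the right, FURIN and JUNB to the left, and the medians by role run from -0.13 for ligands to 0.11 for receptors.

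Among 20 transcriptional targets 16 were tested, 1 fell and 0 rose, with a median of -0.10. JUNB, an AP-1 subunit induced early by TGF-beta and by many other signals (ENSG00000171223; chromosome 19, 12791486 to 12793315, plus strand), was at 93.9, 110, 85.4 and 96.2 CPM in siControl and at 80.3, 64.1, 37.7 and 54.5 CPM in siNAT10. Every siNAT10 library lay under every siControl library, while the groups did not overlap in 5.4% of all tested genes. The fitted log2 difference of JUNB was -0.74 ± 0.14 (SE, edgeR adjusted p = 0.011), -0.50 in batch 1 and -0.98 in batch 2. The call was lost without siNAT10 replicate 2 (edgeR adjusted p = 0.062) and in each batch alone, and HOOK2 lies over its 3′ end on the other strand. ID1, a target of the bone morphogenetic protein branch, had means of 2478 ± 333 CPM in siControl and 2315 ± 390 CPM in siNAT10 (SD, n = 4 each), with a log2 fold change of -0.11. SMAD7, SKIL and TGFBI, described above, had values of 0.15, 0.13 and -0.09.

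In the other roles no gene passed in edgeR. The other 4 SMADs had a median of -0.05, with log2 fold changes of 0.19 for SMAD5 and -0.22 for SMAD6, the second inhibitory SMAD. None of the 4 had an unadjusted p under 0.05, a level that 15.7% of all tested genes reached. Of 10 SMAD partners and transcriptional regulators 0 passed and 1 had an unadjusted p under 0.05, the coactivator CREBBP (27.6 and 21.4 CPM, log2 fold change -0.36, edgeR adjusted p = 0.18). SNW1 and TGIF2, with the highest counts among them, had log2 fold changes of 0.11 and 0.22. Of 10 tested genes for turnover and negative regulation 0 passed and 0 had an unadjusted p under 0.05. In that list the ubiquitin ligase NEDD4L stood at 287 and 296 CPM, FKBP1A, which binds the type I receptor, at 274 and 270 CPM, and the ubiquitin ligase SMURF1 at a log2 fold change of -0.32. DESeq2 called 0 genes of these 3 roles.

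Short sequence matches in 3′ untranslated regions are given because small RNAs can lower an mRNA by pairing there through a seed, and the sequence of siNAT10 is not in the labels. The heptamers GTCTCTA and TTACAAA were picked in earlier work on these same libraries, so their values are descriptions. GTCTCTA occurs once (1 site) in the 3078 bases of the NAT10 coding sequence, and TTACAAA at 0 sites. The NAT10 3′ untranslated region of 716 bases holds 0 sites of GTCTCTA and 0 of TTACAAA. Over 10885 tested genes with a canonical 3′ untranslated region, the median log2 fold change was -0.06 for the 15.4% that hold GTCTCTA and 0.0079 for the others. It was 0.06 for the 21.1% that hold TTACAAA and -0.018 for the others. Among the 9 genes GTCTCTA was found in TGFBR1 and SMAD2, and TTACAAA in TGFBR1, TGFBR2, SMAD2, SMAD4 and SKIL. TGFBR3 holds TTACAAA and JUNB holds GTCTCTA, while FURIN holds neither. The sites of the genes that passed, and of TGFBR1, are shown with the heptamer in capitals.
TGFBR2 site: tgtggagacacTTACAAAgctgcctcact
TGFBR3 site: ttaaaattaatTTACAAAtttatagatgc
TGFBR1 site with TTACAAA: ttcaggttttaTTACAAAatgtaagtggt
TGFBR1 site with GTCTCTA: aattgctgaaaGTCTCTAtgttaaaacct
JUNB site: acacgcacttaGTCTCTAaagagtttatt

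SMAD2 holds 6 sites of each heptamer in an annotated 3′ untranslated region of 32870 bases, and its groups overlapped. TGFBR1 holds 1 site of each. The part of these matches in the values above was not tested.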

How the data were processed

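Raw counts per gene in 8 libraries were deposited by the authors, who aligned reads with STAR 2.7.9a to GRCh38 and counted them with featureCounts, per the labels. The sample labels give the table another name than the deposited one, and libraries were matched to it by the column names they give. Trim Galore 0.6.10 and cutadapt 3.5 are named in the submitters' processing notes. The annotation release and strand setting are not given in the sources used here, and the labels name the 3′ kit as forward in one place and reverse in another. Of 86369 identifiers 61458 matched GENCODE 44, which gave symbols and coordinates.

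In R 4.3.3, edgeR 4.0.16 kept genes by filterByExpr (minimum count 10), scaled by TMM and ran the quasi-likelihood F test with batch and siRNA as terms. Benjamini-Hochberg adjustment ran over all 13840 genes, with a call at 0.05. Standard errors came from the F statistic, and 95% intervals from its degrees of freedom. CPM used TMM-scaled library sizes, and log2 CPM a prior count of 2. The fit was tested on simulated data that held no difference between batches. Alternatives were no batch term, a replicate block, DESeq2 1.42.0, RLE, library size alone, other filters, each batch alone, each library left out, and thinning to 9731718 counts. Same-numbered libraries of the groups deviated together (correlations 0.39, 0.38, 0.45 and 0.36). They also share a batch, and batch means were not removed here, so these correlations cannot tell pairing from batch. The replicate number entered as a block in an alternative fit only.

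The members, the lists and the motifs were chosen with earlier results of these data known. The genes named were the 9 members, NAT10, list genes that passed, and in each role the 2 of highest mean CPM and the one with the largest change among those of at least 5 CPM. For the member with the smallest p, the 3 genes most correlated with it were also named. One list gene that this rule names is not reported here.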

Additional observations from a re-analysis of the deposited data

Results flagged for a closer look

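Each of the 9 genes was examined in each group of 4 libraries for a highest or lowest library set apart from its neighbour by more of the group's range than Dixon's 95% critical value. Of 18 such groups 1 was found, where chance gives about 1 in 20. TGFBI in siControl replicate 4 was at 786 CPM, against 941 to 958 CPM in the other siControl libraries, a gap of 0.908 of the range. Without that library the TGFBI log2 fold change was -0.11.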

How the results depend on the processing

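TGFBR2 kept its direction under all 18 settings and its call in 16. The count of genes called, 315, was 15 without the batch term, 599 with DESeq2, 595 with no filter on low counts, 173 in batch 1 alone and 0 in batch 2 alone (edgeR, 946 at an unadjusted p under 0.05), and ran from 75 to 286 with 1 library left out. The count among the 9 genes, 1, was 0 without the batch term (2 at an unadjusted p under 0.05 in edgeR) and 0 in batch 2 alone (1 at that level). The count in the wider list, 3, was 0 without the batch term (7 at an unadjusted p under 0.05 in edgeR), 5 with the replicate block, 7 with DESeq2, 7 with no filter, 1 in batch 1 alone (CCN2), 0 in batch 2 alone (8 at that level) and 0 to 4 with 1 library left out. The replicate block changed no call among the 9 genes, and 454 genes were called with it. The NAT10 permutation p was 0.056 with labels exchanged within batches, the smallest that 36 arrangements allow.

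The sign turned for SMAD3 in batch 2 alone (-0.13) and within its range of -0.12 to 0.11 with 1 library left out, for SMAD4 in batch 2 alone (-0.0088), and for TGFBI in batch 1 alone (0.095) and within -0.21 to 0.012 with 1 library left out. The cause of these shifts was not tested. Depth was least for TGFB1 and SMAD7, with 79 and 95 counts in their smallest library.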
